A study of Mus musculus with 17 samples.

Results

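The genes of the mitochondrial calcium uniporter and of the voltage-dependent anion channels (VDACs) were followed in hearts of 12- to 16-month-old mice that accumulate mtDNA mutations in cardiomyocytes. The 9 genes were chosen by name from 56748 rows of a gene count table, namely *Mcu*, *Mcub*, *Micu2*, *Micu3*, *Smdt1*, *Letm1*, *Vdac1*, *Vdac2* and *Vdac3*, and all 9 were among the 16195 genes with enough counts to be tested. Bulk RNA-seq was performed on 17 hearts, 9 from *Polg*hMut mice (hMut) and 8 from controls (Ctrl), with 1 library per heart. hMut mice are homozygous for an inducible *Polg* allele and carry 1 copy of a Ckmm-cre transgene, which is driven by a muscle creatine kinase promoter. Cre removes a floxed wild-type *Polg* cassette, and the locus then expresses a proofreading-deficient mtDNA polymerase, while heart cells without Cre keep the wild-type cassette. Which alleles the Ctrl mice carried is not given in the sources used here, and no mouse was given an experimental treatment.

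Calcium has to cross both mitochondrial membranes. VDACs are pores of the outer membrane that pass metabolites and calcium, and the uniporter is a channel of the inner membrane that is driven by the membrane potential. In the heart, calcium in the matrix activates dehydrogenases and so couples the supply of ATP to contraction, whereas an overload of calcium opens the permeability transition pore. *Mcu* encodes the pore-forming subunit of the uniporter and *Mcub* its paralog, which lowers the current of the channel when it takes the place of MCU.

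Total counts lay between 34425783 and 46486964 in Ctrl hearts and between 32915159 and 40175122 in hMut hearts, and the share on mtDNA-encoded genes between 23.5% and 30.9% in Ctrl and between 15.9% and 23.0% in hMut. The targeted gene, *Polg*, had a mean of 34.7 ± 7.31 CPM in Ctrl (SD, n = 8) against 57.9 ± 6.08 CPM in hMut (SD, n = 9), a log2 fold change of 0.74 (adjusted p = 0.000448). CPM is the count scaled to the TMM-normalized library size, and each adjusted p was computed by edgeR (quasi-likelihood) and adjusted by Benjamini and Hochberg's method over all 16195 genes. In this test 749 genes passed the threshold of 0.05, of which 564 were higher and 185 lower in hMut. Scaling the libraries on 10 cardiomyocyte markers, which moved the median log2 fold change of all genes to 0.24, gave 4211 higher and 92 lower. Defining cardiomyocyte markers were present in every library, with a summed level of 51889 to 62431 CPM in Ctrl. A pair of hMut hearts, replicates 6 and 9, stood apart from the rest. Their cardiomyocyte markers summed to 41161 and 39604 CPM, against 52237 to 61856 CPM in the other 7 hMut hearts. The 8 macrophage markers, none of which was at 0 in any heart, summed to 1309 and 670 CPM in this pair, against 307 to 416 CPM in the other hMut hearts and 242 to 369 CPM in Ctrl. The 8 fibroblast markers summed to 2063 and 1585 CPM in the pair and to at most 1168 CPM in the other hMut hearts. The 4 genes of an atrial list (*Myl7*, *Myl4*, *Sln* and *Nppa*) summed to 687 and 425 CPM, against at most 233 CPM in the others. Of these 4 genes, 2 had enough counts to be tested, and the paper uses *Nppa* as a marker of cardiac stress. In bulk tissue, fewer cells of a type, less RNA per cell and a change of the marker genes themselves cannot be told apart. The log2 fold changes of the 10 cardiomyocyte markers, hMut minus Ctrl, ran from -0.43 (*Tnni3*) to -0.03 (*Mb*).

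None of the 9 genes passed the threshold between hMut and Ctrl hearts in edgeR's quasi-likelihood test, while 4.62% of all tested genes did. The count was also 0 with DESeq2 and with limma-voom, and at an unadjusted p under 0.05 it was 0 of 9, against 25.8% of all tested genes. The median log2 fold change of the 9 genes was 0.0017 and that of all tested genes 0.0023, and 5 of the 9 values were positive. In none of the 9 did the groups fall apart without overlap, which 0.605% of all tested genes did. The genes were measured closely, with a median standard error (SE) of 0.06 on the log2 scale against 0.10 over all tested genes. For every member but *Mcub*, the 95% interval of the fold change lay between 0.838 and 1.10. Scaled on cardiomyocyte markers, 4 members passed, namely *Micu2*, *Smdt1*, *Vdac2* and *Vdac3*, with log2 fold changes of 0.23 to 0.29 beside a shift of 0.24 in all genes. With that scaling 4303 of all 16195 tested genes passed, 4211 of them higher. Without hMut replicates 6 and 9 none of the 9 genes passed.

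**Figure D1:**
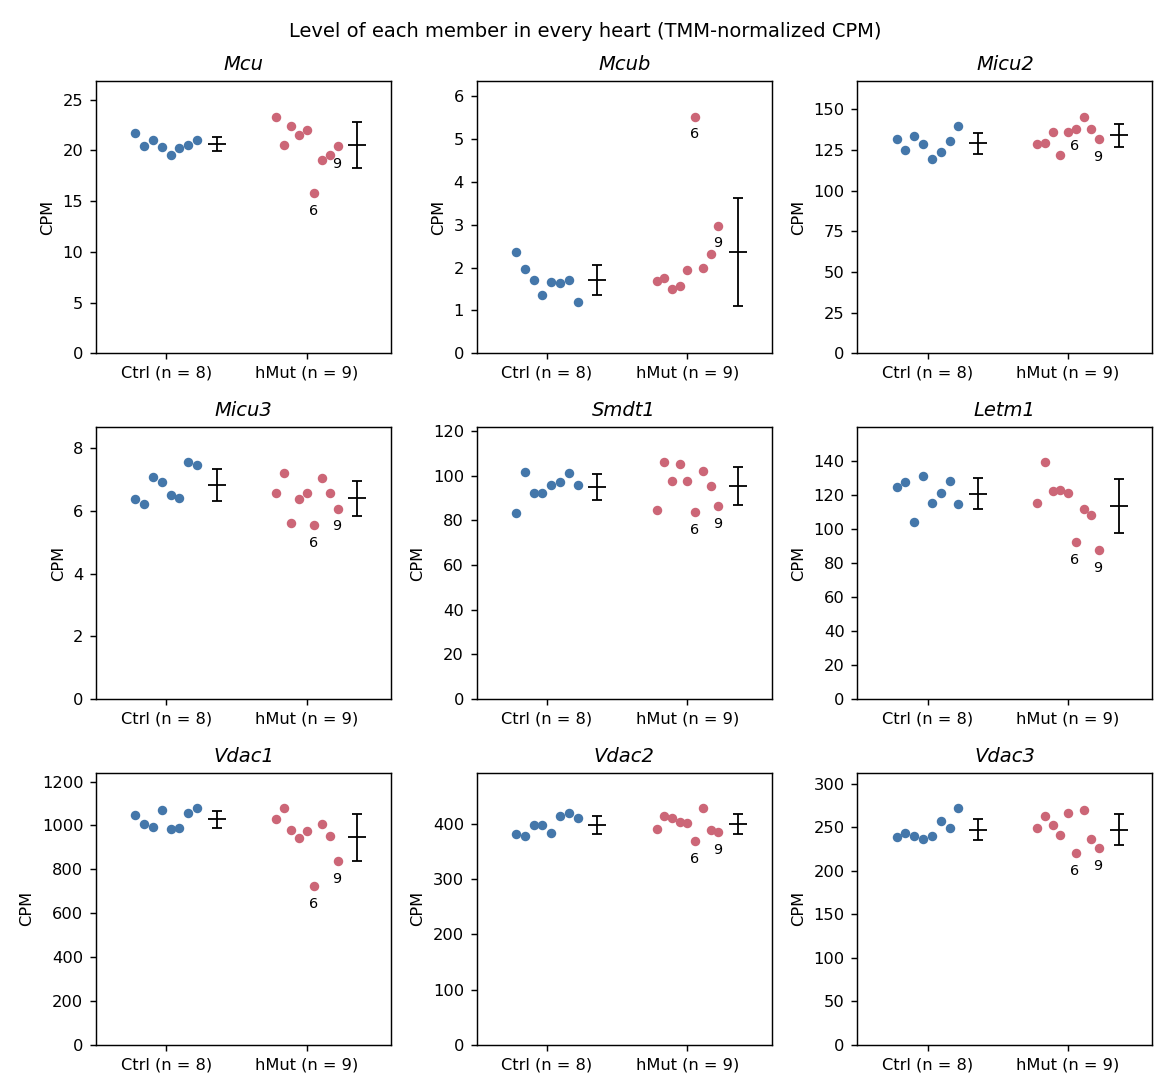
Level of each of the 9 genes in every heart as TMM-normalized CPM on the y axis, from 0, with Ctrl (blue, n = 8) and hMut (red, n = 9) along the x axis. Each point is 1 heart, the bars beside the points are the mean and SD, and the digits 6 and 9 mark hMut replicates 6 and 9, which are the 2 highest for *Mcub* and the 2 lowest for *Vdac1*.

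The promoters of the pore subunit and its paralog are set side by side because these paralogs had the lowest and the highest relative spread of the 9 genes in Ctrl hearts. Their depth differed too, with 642 to 907 counts per library for *Mcu* and 43 to 233 for *Mcub*. Low counts widen the spread, and a link of the spread to the promoters was not tested. The window from 250 bases before to 50 bases after the start site in RefSeq is given for each, 5′ to 3′ on the strand of the gene. Both windows matched GRCm39 once and without a mismatch, *Mcu* at chr10:59452465-59452764 and *Mcub* at chr3:129763806-129764105, each on the minus strand. Capitals mark a CCAAT box (CCAAT, or ATTGG on the other strand).
Mcu: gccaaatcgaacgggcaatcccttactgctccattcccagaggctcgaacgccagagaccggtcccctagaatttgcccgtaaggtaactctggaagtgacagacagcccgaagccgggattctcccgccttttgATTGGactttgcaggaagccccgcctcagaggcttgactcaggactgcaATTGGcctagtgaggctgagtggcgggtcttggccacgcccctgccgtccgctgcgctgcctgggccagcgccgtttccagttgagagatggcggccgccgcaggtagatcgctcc
Mcub: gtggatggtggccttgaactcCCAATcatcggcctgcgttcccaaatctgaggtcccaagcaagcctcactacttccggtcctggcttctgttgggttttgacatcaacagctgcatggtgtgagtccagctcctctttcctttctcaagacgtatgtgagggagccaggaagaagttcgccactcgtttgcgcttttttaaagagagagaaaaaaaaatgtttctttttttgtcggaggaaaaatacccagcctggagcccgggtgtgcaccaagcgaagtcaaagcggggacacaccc
The *Mcu* window was 61.7% G and C with 21 CpG dinucleotides and held 2 CCAAT boxes, and the *Mcub* window was 51.0% G and C with 11 CpG dinucleotides and held 1. Of 32851 RefSeq windows of this length, 37.4% hold a CCAAT box. Neither window held GGGCGG or CCGCCC, the GC box, which 35.7% of all windows hold. The GC box was found in windows of *Letm1*, *Smdt1*, *Micu2* and *Vdac1*, 4 of the 6 members with a window in the table. These 6 members had 7 windows, and a further *Vdac1* window, at chr11:52251428-52251727, held no GC box. Motifs of NRF1, ERR, the interferon-stimulated response element and C/EBP-ATF, searched on both strands and held by 0.971%, 0.423%, 3.44% and 3.97% of all windows, were in neither printed window, and so nothing overlapped the CCAAT boxes. A match is a description of letters and not a site of binding.

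The level of *Mcu* transcripts did not differ between the groups past the threshold. In Ctrl hearts *Mcu* (ENSMUSG00000009647, chromosome 10, GRCm39, 59282806 to 59452514, minus strand, 8 exons in its canonical transcript) was at 19.5 CPM in the lowest, 20.5 in the median and 21.7 in the highest heart. In hMut hearts these values were 15.8, 20.5 and 23.3 CPM. The hMut values lay on both sides of the Ctrl range, with 3 hearts above every Ctrl heart and 2 below. Replicate 6 was the lowest at 15.8 CPM, and the next lowest was at 19.1. The log2 fold change was -0.0064 (SE 0.06, 95% interval -0.13 to 0.12, adjusted p = 0.958), so that a change of the group mean by more than 1.09-fold up or 0.911-fold down lay outside the interval. Without replicates 6 and 9 the log2 fold change was 0.04 (adjusted p = 0.675), and scaled on cardiomyocyte markers it was 0.22 (adjusted p = 0.0546), outside that interval and beside a shift of 0.24 in all genes. The coefficient of variation (CV, the SD as a percentage of the mean) was 3.21% in Ctrl and 10.9% in hMut, a difference in spread that was not tested.

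*Mcub* (ENSMUSG00000027994, chromosome 3, 129708609 to 129763855, minus strand, 8 exons) was the member with the largest group difference and the widest error. It was at 1.21 CPM in the lowest, 1.69 in the median and 2.37 in the highest Ctrl heart. In hMut the lowest heart was at 1.51, the median at 1.93 and the highest at 5.52 CPM. Only replicates 6 (5.52 CPM) and 9 (2.98 CPM) were above every Ctrl heart, and the other 7 lay between 1.51 and 2.30 CPM, within the Ctrl range. The log2 fold change was 0.47 (SE 0.24, 95% interval -0.03 to 0.97, adjusted p = 0.220). It was 0.20 without replicate 6 (adjusted p = 0.472), 0.09 without replicates 6 and 9 (adjusted p = 0.785), and 0.13 with limma-voom and a quality weight for each heart (adjusted p = 0.614). Leaving out replicates 6 and 9, which held the highest *Mcub* values, lowers the difference by construction. Scaled on cardiomyocyte markers the log2 fold change was 0.79 (adjusted p = 0.0616). The gene held 43 to 233 counts per library, the fewest of the 9 members. In the same pair of hearts the macrophage markers were at 1309 and 670 CPM, the fibroblast markers at 2063 and 1585 CPM, and the lymphocyte markers at 42.7 and 6.33 CPM, against a Ctrl range of 0.908 to 37.7 CPM for the last. The part of these cells in the *Mcub* values was not tested. Both hearts are male by their *Xist* and Y-linked counts, and with sex as a covariate the log2 fold change of *Mcub* was 0.40 (adjusted p = 0.324). The deposited gene model of *Mcub* ends 1184 bases short of that in GENCODE M39 at its 3′ side.

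**Figure D2:**
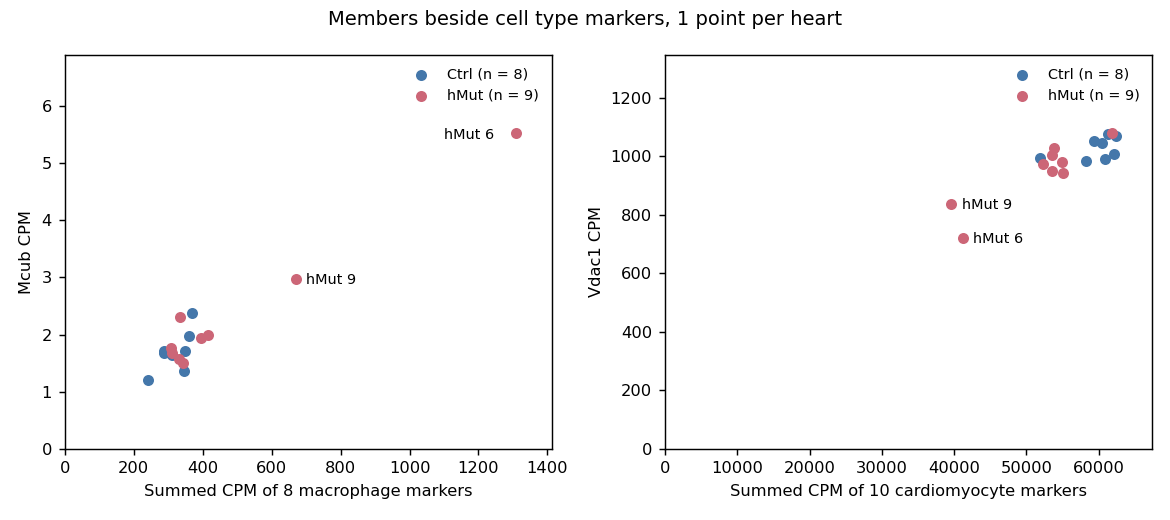
Left, *Mcub* CPM (y axis) against the summed CPM of 8 macrophage markers (x axis); right, *Vdac1* CPM against the summed CPM of 10 cardiomyocyte markers, with 1 point per heart (Ctrl blue, n = 8; hMut red, n = 9) and all axes from 0. hMut replicates 6 and 9 lie apart from the other 15 hearts in both panels, with the highest *Mcub* and macrophage values and the lowest *Vdac1* and cardiomyocyte values.

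The regulators of the pore showed no group difference past the threshold. *Smdt1* encodes EMRE, a small inner membrane protein that animal uniporters need for conduction and that links the pore to its gatekeepers. It (ENSMUSG00000022452) lies on chromosome 15 from 82223160 to 82233292 on the plus strand, with 3 exons. *Smdt1* was at 83.1, 95.9 and 102 CPM in the lowest, median and highest Ctrl heart and at 83.6, 97.5 and 106 CPM in hMut, and 3 hMut hearts were above every Ctrl heart and none below. The log2 fold change of *Smdt1* was 0.0077 (SE 0.06, 95% interval -0.11 to 0.12, adjusted p = 0.944). The gene overlaps *Pheta2* on the same strand, which held 22 to 50 counts per library against 2903 to 4405 for *Smdt1*. No 50-base stretch of the canonical *Smdt1* transcript recurred in another annotated gene. How reads in any other part common to both genes were assigned is not given in the sources used here.

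*Micu2* and *Micu3* encode EF-hand proteins of the intermembrane space that help to set the calcium threshold at which the pore opens. *Micu2* (ENSMUSG00000021973, chromosome 14, 58153718 to 58236719, minus strand, 12 exons) was at 120 to 140 CPM in Ctrl (median 130) and at 122 to 146 CPM in hMut (median 136). The hMut median was higher, but only 1 hMut heart was above every Ctrl heart, and the log2 fold change of 0.05 (SE 0.04, 95% interval -0.03 to 0.14) did not pass the threshold (adjusted p = 0.400). *Micu3* (ENSMUSG00000039478, chromosome 8, 40760499 to 40839349, plus strand, 15 exons) was the member with the fewest counts after *Mcub*. It was at 6.21 to 7.54 CPM in Ctrl (median 6.71) and at 5.54 to 7.21 CPM in hMut (median 6.56), and 3 hMut hearts were below every Ctrl heart. Its log2 fold change was -0.09 (SE 0.07, 95% interval -0.23 to 0.05, adjusted p = 0.381), and 0.13 when libraries were scaled on cardiomyocyte markers.

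*Letm1* encodes an inner membrane protein with EF hands for which exchange of cations against protons has been described. On chromosome 5, it (ENSMUSG00000005299) spans 33897017 to 33940161 on the minus strand, with 14 exons. It was at 104, 123 and 131 CPM in the lowest, median and highest Ctrl heart and at 87.5, 115 and 139 CPM in hMut. The 2 hearts below every Ctrl heart were replicates 9 (87.5 CPM) and 6 (92.3 CPM), and replicate 2 was above every Ctrl heart. The log2 fold change was -0.09 (SE 0.08, 95% interval -0.25 to 0.07, adjusted p = 0.466). Without replicate 9 it was -0.05, and scaled on cardiomyocyte markers it was 0.12 (adjusted p = 0.0586). Over the 7 hMut hearts other than replicates 6 and 9 the mean was 120 ± 10.1 CPM (SD), against 121 ± 8.95 CPM in Ctrl (SD, n = 8).

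*Vdac1* was the most abundant of the 9 transcripts by CPM and, after *Mcub*, the one with the smallest p. It encodes the main VDAC isoform of most tissues and (as ENSMUSG00000020402) lies on chromosome 11 from 52251687 to 52280224 on the plus strand, with 9 exons. Ctrl hearts spanned 986 to 1077 CPM with a median of 1028. hMut hearts spanned 723 to 1079 CPM with a median of 974. In hMut, 6 of 9 lay under the whole Ctrl range and 1 above it, and the lowest were replicates 6 (723 CPM) and 9 (837 CPM). The log2 fold change was -0.12 (SE 0.06, 95% interval -0.25 to 0.02) and did not pass the threshold (adjusted p = 0.246). It lay between -0.14 and -0.08 with any 1 library left out, and was 0.10 (adjusted p = 0.101) when libraries were scaled on cardiomyocyte markers. Those markers were lowest in the same pair of hearts, and their part in the *Vdac1* values was not tested. Over the other 7 hMut hearts the mean was 995 ± 47.6 CPM (SD), with 4 of the 7 still below every Ctrl heart, against 1028 ± 37.8 CPM in Ctrl (SD, n = 8).

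*Vdac2*, whose product also binds the pro-apoptotic protein BAK, and *Vdac3* were nearly level between the groups. *Vdac2* (ENSMUSG00000021771, chromosome 14, 21875306 to 21895947, plus strand, 9 exons) was at 378 to 420 CPM in Ctrl (median 399) and at 369 to 429 CPM in hMut (median 402). Its log2 fold change of 0.0044 had the smallest SE of the 9 genes, 0.04, with a 95% interval of -0.07 to 0.08 (adjusted p = 0.953). *Vdac3* (ENSMUSG00000008892, chromosome 8, 23067091 to 23083829, minus strand, 9 exons) was at 237 to 272 CPM in Ctrl (median 242) and at 221 to 270 CPM in hMut (median 249), with a log2 fold change of 0.0017 (SE 0.05, 95% interval -0.10 to 0.10, adjusted p = 0.986). In both genes the hMut heart with the lowest value was replicate 6.

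Reads of the VDACs can be split with near-identical copies. Of the 50-base stretches of the canonical transcript, 75.0% in *Vdac3*, 22.1% in *Vdac2* and 2.34% in *Vdac1* recur in transcripts of other annotated genes, mostly pseudogenes, and none do in the other 6 members. No such stretch was shared between members, so reads of *Mcu* and *Mcub*, or of the VDACs among themselves, were distinct at this length. *Vdac3-ps1*, a pseudogene, held 1137 to 1647 counts per library, or 15.4% of the *Vdac3* counts, and was at 37.7 CPM in Ctrl and 38.4 CPM in hMut on average (log2 fold change 0.02, adjusted p = 0.826). *Gm61604*, which shares most stretches with *Vdac3*, was not found by this name among the genes counted, so the level of *Vdac3* is uncertain. With the counts of the other such copies added, its log2 fold change was 0.0043 (adjusted p = 0.963), and those of *Vdac1* and *Vdac2* were -0.12 and 0.0044.

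**Figure D3:**
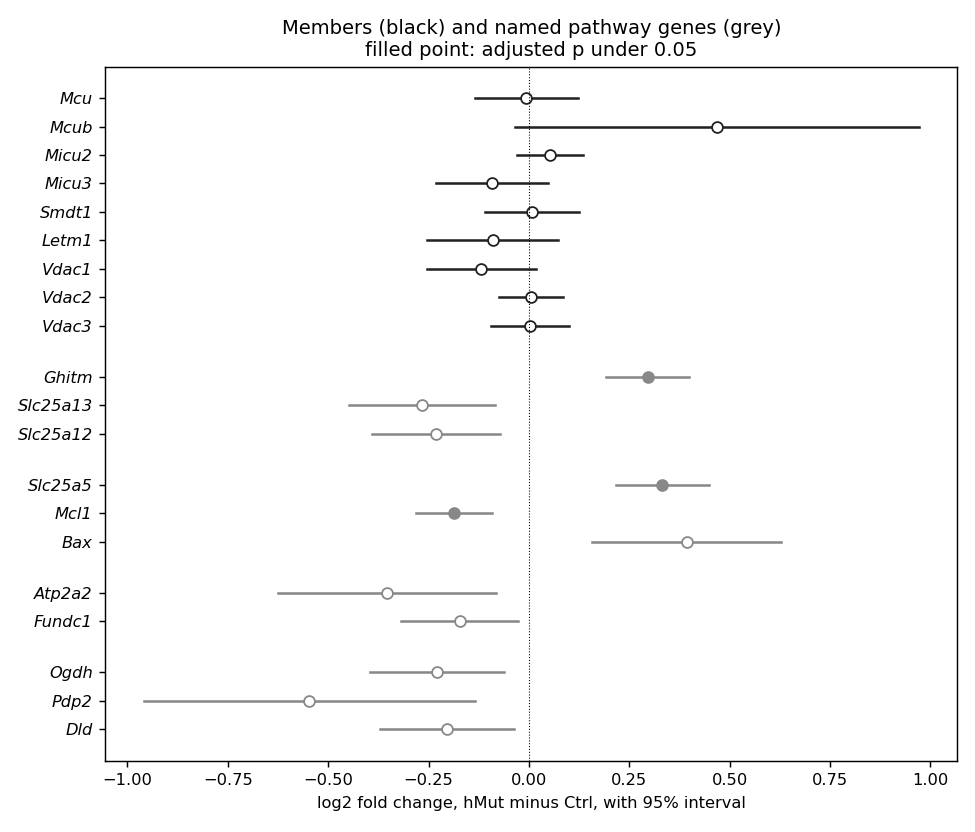
Log2 fold change, hMut minus Ctrl (x axis), with its 95% interval for the 9 members (black) and the named genes of 4 pathway lists (grey), from edgeR's quasi-likelihood test on 9 hMut and 8 Ctrl hearts. Filled points passed an adjusted p of 0.05; the interval of every member crosses 0, and *Ghitm*, *Slc25a5* and *Mcl1* are filled.

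Levels between genes were compared per length, as CPM per kilobase of the gene length in the deposited table. In Ctrl hearts *Vdac1* was highest at 392 ± 14.4, followed by *Vdac2* at 83.5 ± 3.37, *Smdt1* at 64.2 ± 4.02, *Vdac3* at 45.6 ± 2.23 and *Micu2* at 41.9 ± 2.07 CPM per kilobase (SD, n = 8). *Letm1* was at 12.5 ± 0.927, *Mcu* at 2.97 ± 0.0954, *Mcub* at 1.30 ± 0.270 and *Micu3* at 1.11 ± 0.0832 CPM per kilobase (SD, n = 8). The ranges of *Vdac3* and *Micu2*, and of *Mcub* and *Micu3*, overlapped, and all other neighbours in this order lay apart. The order was the same in hMut hearts, where *Mcu* and *Mcub* overlapped too. Lengths in the table exceed that of the canonical GENCODE transcript for every member but *Mcub*. With the transcript length instead, a choice made after seeing the data, *Vdac1* was at 479 ± 17.6 and *Vdac2* at 417 ± 16.8 CPM per kilobase in Ctrl (SD, n = 8). *Vdac3* was at 174 ± 8.54 and *Mcu* at 7.16 ± 0.230 CPM per kilobase (SD, n = 8), and *Mcub* was lowest. For *Mcub* this length is longer than the deposited model that was counted, which lowers its value by construction. With this length the ranges of *Vdac1* and *Vdac2*, and those of *Micu3* and *Mcub*, overlapped in hMut hearts. Both scales placed the pore subunit below *Smdt1*, *Micu2* and *Letm1*.

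Ratios of the members within a heart do not depend on how libraries are scaled. The ratio of *Mcub* to *Mcu*, in counts per length, lay between 0.302 and 0.574 in Ctrl (median 0.434). In hMut hearts its median was 0.461, but it reached 1.84 in replicate 6, where *Mcub* was highest and *Mcu* lowest. With canonical transcript lengths, again a choice made after seeing the data, the Ctrl median was 0.0950 and replicate 6 was at 0.403. The deposited model of *Mcub* (1318 bases) lacks 1184 bases at its 3′ side, while its canonical transcript has 2502 bases. Dividing the deposited counts by that longer length lowers *Mcub* by construction. Whether *Mcub* exceeded *Mcu* in that heart was therefore not settled. The ratio per deposited length was above every Ctrl heart in 3 of 9 hMut hearts. *Micu2* to *Mcu* was between 13.6 and 15.0 in Ctrl and between 12.4 and 19.7 in hMut, with 3 hearts above and 2 below the Ctrl range. *Smdt1* to *Mcu* was between 17.9 and 23.3 in Ctrl and between 17.1 and 25.1 in hMut, and *Micu3* to *Mcu* between 0.331 and 0.414 in Ctrl and between 0.283 and 0.416 in hMut. The groups overlapped in all 4 of these ratios.

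Within the VDACs, the isoforms other than *Vdac1* took a slightly larger part in hMut hearts. The ratio of *Vdac2* to *Vdac1* was between 0.200 and 0.230 in Ctrl (median 0.212) and between 0.208 and 0.281 in hMut (median 0.230), with 5 of 9 hMut hearts above every Ctrl heart and none below. For *Vdac3* to *Vdac1* the Ctrl range was 0.107 to 0.126 (median 0.117) and the hMut range 0.117 to 0.148 (median 0.124), with 4 of 9 hMut hearts above every Ctrl heart. Replicate 6 was highest in both. On average *Vdac1* made up 75.2 ± 0.826% of VDAC counts per length in Ctrl (SD, n = 8) and 73.5 ± 1.64% in hMut (SD, n = 9). With canonical transcript lengths the share of *Vdac1* was 44.8 ± 1.09% in Ctrl (SD, n = 8) and 42.6 ± 2.04% in hMut (SD, n = 9), so the absolute values depend on the lengths used. The groups overlapped, and no test was run on these ratios.

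**Figure D4:**
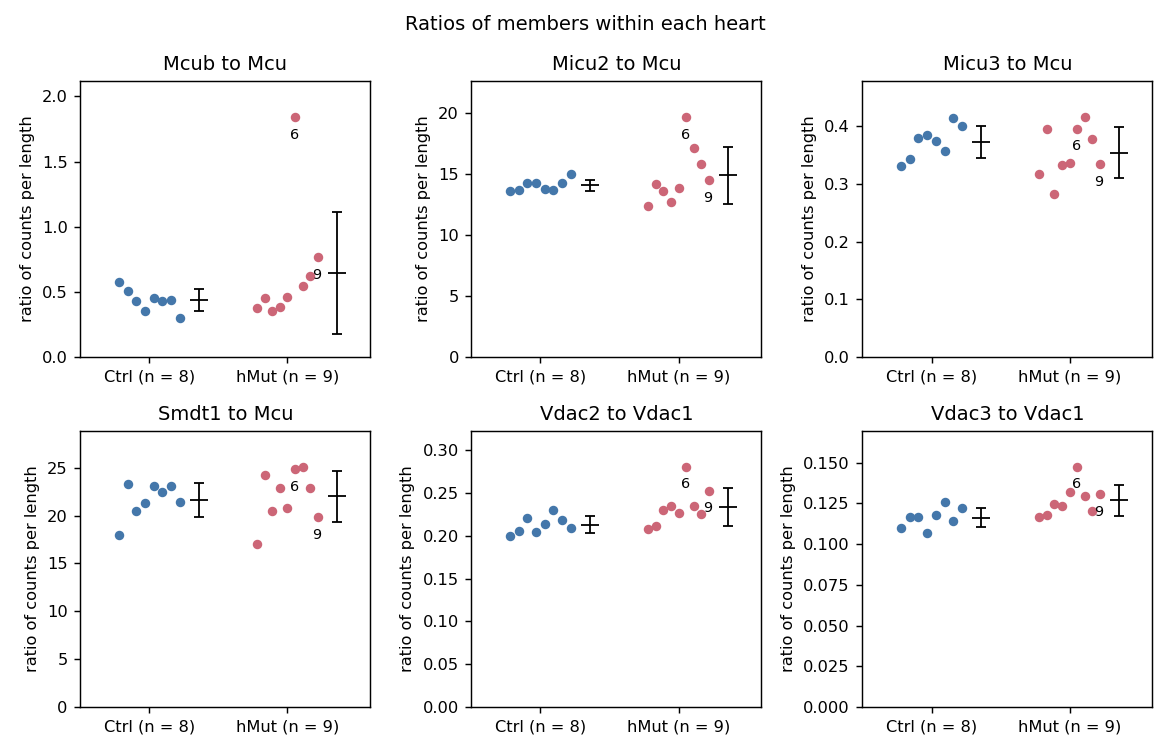
Ratios of counts per deposited length between members within each heart (y axis, from 0) for Ctrl (blue, n = 8) and hMut (red, n = 9), with the mean and SD beside the points and hMut replicates 6 and 9 marked by their digits. Replicate 6 is the highest heart for *Mcub* to *Mcu* (1.84), *Vdac2* to *Vdac1* (0.281) and *Vdac3* to *Vdac1* (0.148).

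Replicate 6 was the lowest of the hMut hearts in 6 of the 9 members (*Mcu*, *Micu3*, *Smdt1* and the VDACs) and the highest in *Mcub*. After the mean of each group was subtracted, Spearman's correlation of log2 CPM across the 17 hearts was positive in 25 of the 36 pairs of members, with a median of 0.22. It was highest between *Vdac2* and *Vdac3* (0.75) and lowest between *Mcub* and *Vdac1* (-0.67), and 7 of the 8 pairs with *Mcub* were negative. All hearts share the same scaling across genes, so these values are a description. By the same measure, the protein-coding genes most like *Mcub* were *Slc7a8*, an amino acid transporter (0.87), and *Otulinl* (0.86). Those most like *Mcu* were *Arhgap42* (0.83) and *Rpia* (0.80), and those most like *Micu2* were *Ppp2r2d* (0.87) and *Eif3e* (0.85). For *Micu3* they were *Bcas2* and *Cibar1* (0.84 each). *Smdt1* was closest to *Atp5g1*, which encodes subunit c of ATP synthase (0.90), and *Anapc13* (0.88), and *Letm1* to *Yif1a* (0.92) and *Tufm*, a mitochondrial translation elongation factor (0.91). *Vdac1* was closest to *Osbpl6* and *Clybl* (0.95 each), *Vdac2* to *Eif2b1* (0.93) and *Snapc5* (0.91), and *Vdac3* to *Pm20d1* (0.85) and *Wif1* (0.84). For each member these genes were picked as the highest values among the tested protein-coding genes across 17 hearts. How high such picked values reach by chance was not tested.

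Other genes of the pathway were read from 4 lists written from general knowledge, beside the 3.48% of tested genes called higher and the 1.14% called lower in hMut. Of 14 other genes of mitochondrial calcium flux, 1 was higher and none lower at an adjusted p under 0.05, and the median log2 fold change was -0.02. The gene that rose was *Ghitm*, which encodes TMBIM5, an inner membrane protein described as a calcium/proton exchanger. *Ghitm* was at 707 to 784 CPM in Ctrl hearts and at 778 to 1006 CPM in hMut hearts, with 8 of 9 hMut hearts above every Ctrl heart. The difference was 0.30 on the log2 fold change scale (SE 0.05, adjusted p = 0.00184), and 0.29 without replicates 6 and 9 (adjusted p = 0.00318). The calcium-sensitive aspartate/glutamate carriers *Slc25a13* (log2 fold change -0.27, SE 0.09, adjusted p = 0.0785) and *Slc25a12* (-0.23, SE 0.08, adjusted p = 0.0804) did not pass in edgeR's test. Both were called lower by DESeq2 (adjusted p = 0.0459 and 0.04997) and by limma-voom (0.0232 and 0.0190), and scaled on cardiomyocyte markers their log2 fold changes were -0.05 and -0.02.

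Of 13 partners of VDAC and genes of the permeability transition, 1 was higher and 1 lower, with a median log2 fold change of 0.21, or 0.13 without replicates 6 and 9. *Slc25a5*, the adenine nucleotide carrier ANT2, was at 210 to 252 CPM in Ctrl and at 249 to 323 CPM in hMut, with 8 of 9 hMut hearts above every Ctrl heart (log2 fold change 0.33, SE 0.06, adjusted p = 0.00173). Copies of this gene were not examined here. *Mcl1*, an anti-apoptotic BCL2 family member, fell by 0.19 on the log2 scale (SE 0.05, adjusted p = 0.0251), from 240 ± 15.2 CPM in Ctrl (SD, n = 8) to 211 ± 11.6 CPM in hMut (SD, n = 9). This call was lost under several settings, among them the fit without Ctrl replicate 6 (adjusted p = 0.0553), and scaled on cardiomyocyte markers its log2 fold change was 0.05 (adjusted p = 0.675). *Bax*, a pro-apoptotic pore former, was at 0.39 on this scale (SE 0.11, adjusted p = 0.0516), with 8 of 9 hMut hearts above every Ctrl heart and 1 below. It was called by DESeq2 (adjusted p = 0.0159), by limma-voom (0.0181) and with scaling on cardiomyocyte markers (0.67, adjusted p = 0.0281), whereas without replicates 6 and 9 its log2 fold change was 0.25 (adjusted p = 0.116).

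None of the 13 genes of contact and calcium release between the reticulum and mitochondria passed the threshold in edgeR's test, and their median log2 fold change was -0.02. DESeq2 and limma-voom each called 1 of them lower, *Atp2a2* (adjusted p = 0.0487 and 0.0120). *Atp2a2*, the calcium pump of the sarcoplasmic reticulum, had the smallest p (log2 fold change -0.35, SE 0.13, adjusted p = 0.109), and was at -0.22 without replicates 6 and 9 (adjusted p = 0.125) and at -0.16 scaled on cardiomyocyte markers (adjusted p = 0.0463). *Fundc1*, an outer membrane mitophagy receptor, was at -0.17 (adjusted p = 0.136), and at 0.04 with that scaling. None of the 12 calcium-sensitive dehydrogenase genes and their regulators passed in edgeR's test either. Their median log2 fold change was -0.18 and 1 of the 12 values was positive, and without replicates 6 and 9 the median was -0.08. Scaled on cardiomyocyte markers, which were lowest in replicates 6 and 9, the median was 0.02, with *Ogdh* at -0.01, *Dld* at 0.0034 and *Pdp2* at -0.38 (adjusted p = 0.0498). DESeq2 called 1 of these 12 genes lower and limma-voom 3. Over all genes DESeq2 called 507 lower of 35739 with any counts, and limma-voom 906 of 16195. *Ogdh*, a subunit of the 2-oxoglutarate dehydrogenase, was at -0.23 (SE 0.08, adjusted p = 0.0943), *Pdp2*, a pyruvate dehydrogenase phosphatase, at -0.55 (SE 0.20, adjusted p = 0.105) and *Dld*, the shared lipoamide dehydrogenase, at -0.20 (SE 0.08, adjusted p = 0.125) on the log2 fold change scale.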

How the data were processed

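RNA was extracted from pieces of frozen heart tissue and poly(A)-selected. Read filtering (fastp), alignment to GRCm39 (HISAT2 2.2.1) and counting per gene (featureCounts 2.0.6) were done by the authors, and what they deposited are raw counts without normalization. Whether counting used strand, and how reads with several matches were treated, is not given in the sources used here.

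Genes were tested with edgeR's quasi-likelihood test (version 4.0.16, R 4.3.3) after filterByExpr and TMM, with condition as the only term, and checked on simulated data. Each SE is derived from the log2 fold change and its F statistic. Alternatives used DESeq2 1.42.0 and limma 3.58.1. Log2 CPM used a prior count of 2. Counts of *Xist* and Y-linked genes gave the sex (3 female Ctrl, 2 female hMut) for a covariate only. Labels number the samples within each group, and the methods speak of individual hMut hearts. Each sample was taken as 1 mouse. Depth was 32915159 to 46486964 counts per library, and intervals reflect the spread between hearts.

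The members and lists were chosen with earlier results of these data known. Genes are named if they are members, among the 3 smallest p-values of a pathway list, among the 2 genes most like a member, or the targeted gene, and 1 gene so chosen is not reported here. *Pheta2* and *Vdac3-ps1* were chosen after their values were seen. *Gm61604*, which was not found by this name among the genes counted, was chosen after its stretches shared with *Vdac3* were seen. Marker genes are named to describe their lists. Promoter windows are RefSeq sequences (GRCm38.p6) matched to GRCm39, and transcripts are those of GENCODE M39.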

Additional observations from a re-analysis of the deposited data

Results flagged for a closer look

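In 3 of 30 sets of values (the 9 members and 6 ratios in each group), 1 heart lay far from the others of its group, by Dixon's criterion on the gap to the nearest heart. By chance about 5% of sets would show one, and the sets share genes and hearts. All 3 were hMut replicate 6, which was highest in each. *Mcub* was at 5.52 CPM in this heart, against 2.98 CPM in the next hMut heart. The ratio of *Mcub* to *Mcu* was 1.84, against an hMut median of 0.461, in counts per deposited length, and 0.403 against 0.101 with canonical transcript lengths. The canonical length of *Mcub* exceeds the model that was counted, which lowers the latter 2 values by construction. The ratio of *Vdac3* to *Vdac1* was 0.148, against an hMut median of 0.124, and 0.462 against 0.389 with canonical lengths.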

How the results depend on the processing

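No member passed the threshold with RLE size factors, DESeq2, limma-voom, either filter on low counts, mtDNA-encoded genes left out, sex as a covariate, the replicate block, replicates 6 and 9 left out, or any 1 of the 17 libraries left out. *Mcub* and *Micu3* could not be given with a minimum mean of 10 CPM. Scaled on cardiomyocyte markers, 4 members passed (*Micu2* 0.29, *Smdt1* 0.23, *Vdac2* 0.23, *Vdac3* 0.23), and the log2 fold changes of *Letm1* (0.12), *Mcu* (0.22), *Micu3* (0.13) and *Vdac1* (0.10) changed sign. *Mcu* was also at 0.040 with limma-voom and at 0.042 without replicates 6 and 9, and *Vdac3* at -0.00041 with RLE size factors and -0.00038 without mtDNA-encoded genes. With 1 library left out, log2 fold changes ranged from -0.031 to 0.035 for *Mcu*, -0.019 to 0.030 for *Smdt1*, -0.0086 to 0.018 for *Vdac2* and -0.015 to 0.021 for *Vdac3*. The count of all genes called moved from 749 to 1517 with DESeq2, 2081 with limma-voom, 463 without a filter, 4303 scaled on cardiomyocyte markers and 431 without replicates 6 and 9, and ranged from 395 (without hMut replicate 5) to 1792 (without hMut replicate 2) with 1 library left out. The cause was not tested. In the order flux genes, VDAC partners, reticulum contact and dehydrogenases, genes called higher and lower were 1 and 2, 2 and 1, 0 and 1, and 0 and 1 with DESeq2, 2 and 3, 4 and 2, 0 and 1, and 0 and 3 with limma-voom, and 4 and 0, 7 and 0, 4 and 1, and 1 and 1 scaled on cardiomyocyte markers. Over all genes, those called higher and lower were 1010 and 507 with DESeq2, 1175 and 906 with limma-voom, and 4211 and 92 with that scaling. The same library number in both groups joins mice of different genotypes, and no source says that it marks a shared litter or batch. Deviations of same-numbered libraries correlated at over 0.1 in 1 of 8 pairs (-0.23 to 0.34), and 1 of 8 Ctrl libraries was closest to its own number. With the replicate block, in which hMut replicate 9 has no partner and adds nothing, 195 genes were called and *Mcl1* was lost (adjusted p = 0.0721). Low counts limit *Mcub*, with 43 to 233 per library.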
